A study of Caenorhabditis elegans with 2 samples.

Results

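Vacuolar ATPase genes whose start sites lay near peaks of tagged ZTF-4 are described here: vha-1, vha-8, vha-9, vha-12 and vha-14, which are 5 of the 20 annotated *Caenorhabditis elegans* genes named vha-. They were chosen by a measured value, the presence of a summit of the thresholded peak list within 500 bp of an annotated start site, so that having a peak is a description and not a finding. The data are chromatin immunoprecipitation followed by sequencing (ChIP-seq) of ZTF-4, a zinc finger protein, fused to enhanced green fluorescent protein, in 2 biological replicates of 1 group. Whole L2 larvae of mixed sex were used, of strain OP322, which carries the integrated transgene wgIs322 in an unc-119(ed3) mutant background. Both replicates share strain, transgene and stage, no second condition was set against them, and the labels do not name the promoter of the transgene. Cells of all tissues were mixed, so the tissue of origin of a peak is unknown. Regions are deposited with a signal value but without reads, and sequencing depth is therefore unknown.

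The vacuolar ATPase is a rotary proton pump that uses ATP to acidify lysosomes, endosomes and other compartments, and it also sits in the plasma membrane of some epithelia. Its peripheral V1 sector holds the catalytic ring of A and B subunits, a central rotor with subunits D and F, and stators that include E, G, C and H. Its membrane V0 sector holds the ring of proteolipid c subunits, through which protons pass, with subunits a, d and e. In the worm several subunits have more than one gene, and the a subunits differ in the tissues that use them. Among the 5 genes, vha-12 encodes subunit B, vha-14 the rotor subunit D, vha-9 the rotor subunit F, vha-8 the stator subunit E and vha-1 a proteolipid subunit c. The first 4 thus belong to V1 and the last to V0.

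The sequences at the summits are given because, beyond a signal value and a q-value, the lists used here were read only for the place of each peak on the genome. Each spans 50 bp to either side of the summit of the pooled list, on ce11, read from RefSeq's copy of the genome in the direction of the gene. None of the 5 windows overlapped an annotated exon of any gene. Capitals mark the searched words described further on, GAGAGA, the word ACGCAG and the word GAGCGC, on either strand, and the summit is the middle base.
vha-8 (chrIV:6790555-6790655, plus strand): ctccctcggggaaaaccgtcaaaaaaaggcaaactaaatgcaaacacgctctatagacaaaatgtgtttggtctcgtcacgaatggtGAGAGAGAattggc
vha-12 (chrX:4190736-4190836, plus strand): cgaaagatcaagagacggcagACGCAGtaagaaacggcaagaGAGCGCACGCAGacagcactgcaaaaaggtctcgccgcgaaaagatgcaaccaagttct
vha-9 (chrII:10303848-10303948, minus strand): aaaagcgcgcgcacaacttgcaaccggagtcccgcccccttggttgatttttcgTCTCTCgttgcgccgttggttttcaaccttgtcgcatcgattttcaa
vha-14 (chrIII:9507899-9507999, plus strand): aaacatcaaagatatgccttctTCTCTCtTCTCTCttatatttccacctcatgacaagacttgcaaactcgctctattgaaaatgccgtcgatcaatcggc
vha-1 (chrIII:9780742-9780842, plus strand): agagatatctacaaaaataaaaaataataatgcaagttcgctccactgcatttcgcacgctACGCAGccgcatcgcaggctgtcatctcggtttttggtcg

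Of the 20 vha- genes, 16 had any region of the pooled list within 500 bp of a start site, and 5 had a peak. Of all protein-coding genes with a pooled region that near, 15.2% had a peak, and of all annotated protein-coding genes 5.18% did. The members were chosen by this contrast, so nothing is read from the difference. By sector, 4 of the 9 V1 genes named vha- had a peak, against 1 of the 9 V0 genes, while neither of the accessory genes vha-19 and vha-20 had one. A pooled region of any height lay near 8 of these V1 genes and 6 of these V0 genes. The 4 and the 1 were not tested against each other. V1 is thus represented by a catalytic ring subunit, both rotor subunits and a stator subunit, and V0 by a proteolipid. The peaks of the stator gene vha-8 and the proteolipid gene vha-1 each lay nearer to the start site of another protein-coding gene.

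All signal values are the authors' own, from the deposited lists, and serve only to rank regions within a list. The peak list held 1794 peaks, which were the pooled regions of highest signal, with values from 60.2 to 843 and a median of 83.0. The peak near vha-8 had a signal of 147 and ranked 256th in the pooled list. Of all peaks, 14.2% had a higher signal. Next came vha-1 with a signal of 96.4 at rank 642, vha-9 with 94.5 at rank 671 and vha-12 with 93.5 at rank 688. These 3 lay close together, and 35.7% to 38.3% of peaks were higher. The peak near vha-14 was the lowest of the set, with 67.1 at rank 1444, and 80.4% of peaks were higher. Thus 4 of the 5 lay above the median of all peaks and 1 below it. The peaks near vha-1, vha-8, vha-9, vha-12 and vha-14 all had the same -log10 q-value of 3.53 in the pooled list, the highest that list holds, so that the q-value does not order them.

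The closest value below the threshold that still belonged to one of the 5 genes was a second region of vha-8, at 472 bp downstream of its start site, with a pooled signal of 51.4 at rank 2503. The lowest peak of the whole list had 60.2 and the next pooled region 60.1. Among the other vha- genes, vha-15, which encodes the stator subunit H, came closest with a pooled signal of 49.2 at rank 2739, and vha-2, a second proteolipid gene, followed with 49.0 at rank 2773. The remaining 9 genes with a region lay lower still, from vha-20 with 40.1 at rank 4213 to vha-10, the subunit G gene, at rank 25120. The gene for the catalytic subunit A, vha-13, was among them with 19.6 at rank 19727. That is far below its partner in the ring, vha-12, which was chosen for having a peak. These low pooled ranks did not hold steady between the replicates. In replicate 1 vha-13 ranked 7258, and in replicate 2 it had no region within 500 bp. For vha-10 the ranks were 4296 and 11810, by regions with summits at 56 bp and -422 bp. No pooled region lay within 500 bp of vha-4, vha-6, vha-7 or vha-18, nor did one within 1000 bp.

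**Figure D1:**
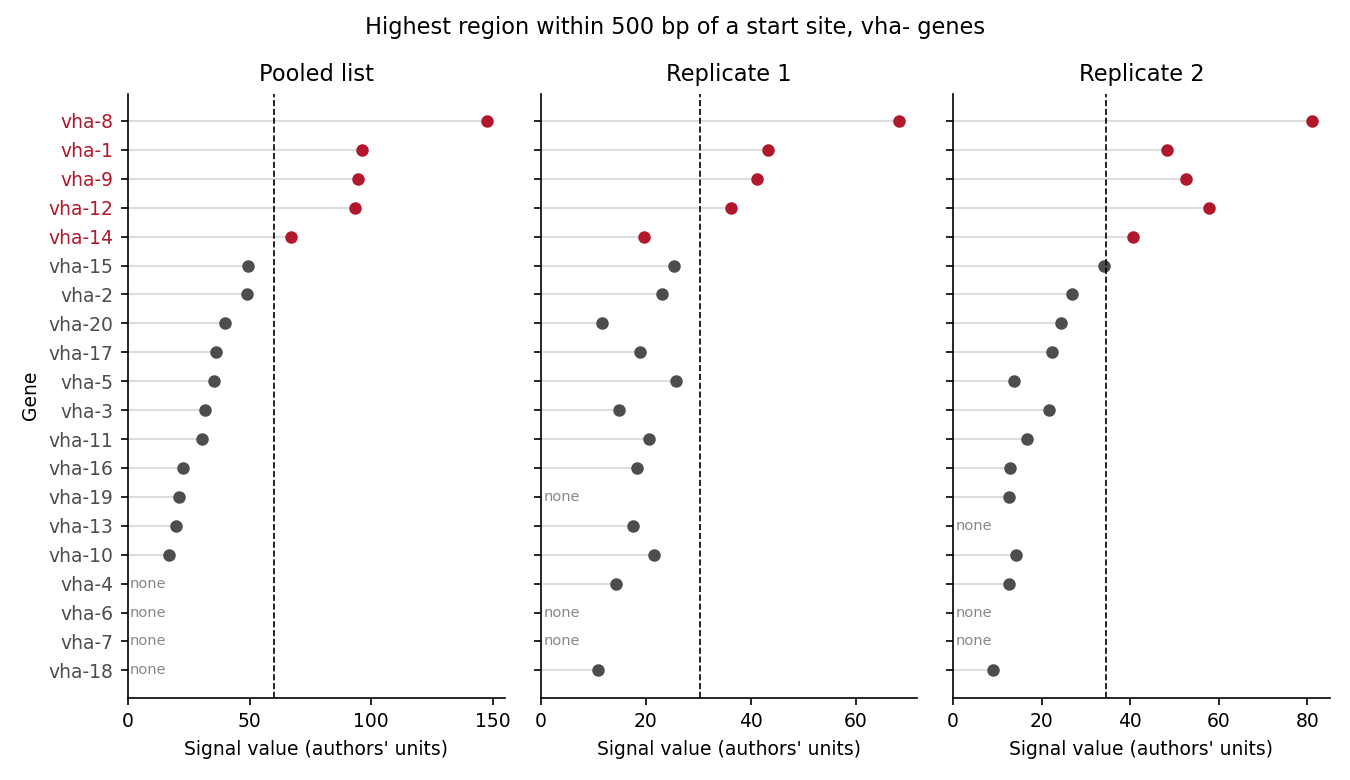
Signal of the highest region within 500 bp of a start site (x axis, authors' units) for each of the 20 vha- genes (y axis), in the pooled list and in each replicate. Red marks the 5 genes with a peak and grey the others, the dashed line is the signal of the region ranked 1794th in that list, and "none" means no region within 500 bp. In replicate 1 the value of vha-14 (19.8) lies left of the line, and in replicate 2 that of vha-15 (34.2) lies just left of it.

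Both replicates listed a region over each of the 5 peaks. Since the peak list was derived from both, the replicates describe the peaks and do not test them. The highest overlapping region at vha-8 had a signal of 68.3 in replicate 1 and 81.1 in replicate 2, at ranks 271 and 252. At vha-1 the signals were 43.2 and 48.2, at ranks 775 and 864. At vha-9 they were 41.2 and 52.5, at ranks 875 and 714. Ranks at these 3 genes differed between the replicates by factors of 1.08, 1.11 and 1.23, below the median factor of 1.75 over the 1787 peaks found in both replicates.

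At vha-12 the highest overlapping regions of the 2 replicates had close ranks, but their summits lay at different places. Replicate 1 listed 2 regions there, one with its summit at -559 bp and a signal of 48.7 (rank 584), and one at -308 bp with 36.3 (rank 1184). Replicate 2 listed 1 region, at -340 bp, with a signal of 57.9 (rank 570), and the pooled list 1 region, at -308 bp. Taking the stronger region of replicate 1, the summits of the replicates stood 219 bp apart, a distance that 2.13% of peaks reached or passed, while the other members differed by 6 to 31 bp, against a median of 30 bp over all peaks. Only the weaker region of replicate 1 met the 500 bp limit, and its rank (1184) was farther from that of replicate 2 (570).

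The replicates differed most at vha-14. Its region had a signal of 19.8 at rank 5404 in replicate 1 and of 40.6 at rank 1290 in replicate 2. Replicate 1 thus listed the gene well below its 1794 highest regions, with a -log10 q-value of 0.666, and replicate 2 listed it among them, with 3.65. The ranks differed by a factor of 4.19, which 11.9% of the peaks found in both replicates reached or passed. Of the 20 vha- genes, 4 had a region in the top 1794 of replicate 1, against 4.81% of all annotated protein-coding genes (961, among 6882 with any region of that list nearby). In the top of replicate 2 there were 5, against 5.21% (1041, among 7083). Among the 5 peaks, 4 were matched in the tops of both replicates, against 63.4% of all peaks, and the exception was vha-14. As the peaks came from these replicates, nothing is read from these shares.

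**Figure D2:**
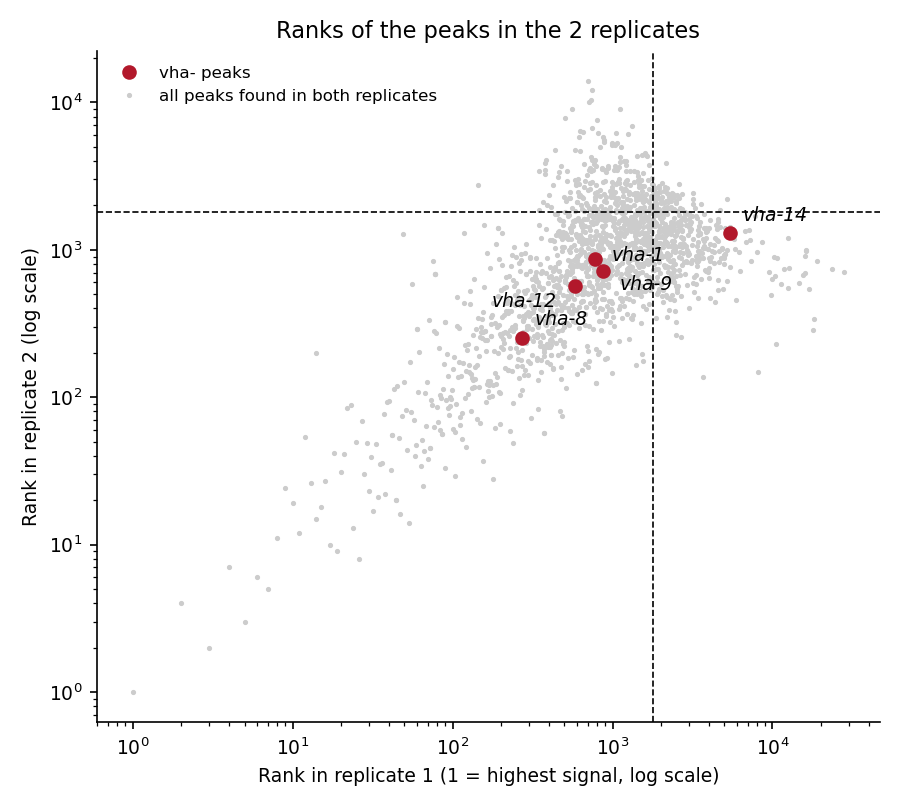
Rank of each peak's highest overlapping region in replicate 1 (x axis, log scale) and replicate 2 (y axis, log scale), where 1 is the highest signal. Red points are the 5 vha- peaks, grey points all 1787 peaks found in both replicates, and dashed lines rank 1794. The peaks of vha-1, vha-8, vha-9 and vha-12 sit within both lines, and vha-14 lies right of the line for replicate 1.

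The replicates also ordered the vha- genes just below the threshold in different ways. The region near vha-15 ranked 2861 in replicate 1 and 1833 in replicate 2, there just outside the top 1794. The regions near vha-2 ranked 3645 and 2993. In replicate 1 vha-5, an a subunit gene, ranked 2740 by a region with its summit at -201 bp. In replicate 2 it ranked 12591 by a region with its summit elsewhere, 10 bp downstream of a start site. The gene vha-20, which encodes an accessory protein related to the mammalian prorenin receptor, ranked 18884 in replicate 1 and 3706 in replicate 2. Among the other 15 vha- genes, none had a region in the top 1794 of either replicate. The V0 gene unc-32, an a subunit gene with another name, had a pooled signal of 51.9 at rank 2459. It ranked 6345 in replicate 1 and 1424 in replicate 2, so that it was in the top of replicate 2 only. The B subunit gene spe-5, a paralogue of vha-12 known for its role in sperm, had a pooled signal of 29.8 at rank 8022. It ranked 2921 in replicate 1 and 25413 in replicate 2, by regions with summits 197 bp and 409 bp downstream of a start site.

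All 5 summits lay upstream of the gene's start site, in sequence annotated to no gene. The gene vha-14 (WBGene00010130, chrIII:9508100-9509757) had its summit 151 bp upstream, within a peak at chrIII:9507767-9508130 that reached over the start site itself. For vha-9 (WBGene00006918, chrII:10303050-10303713, minus strand) the summit lay 185 bp upstream, in a peak at chrII:10303716-10304079 that filled much of the space between the start site and the end of gcy-4, a receptor guanylyl cyclase gene that ends at -426 bp. The summit of vha-12 (WBGene00006921, chrX:4191094-4193144) lay 308 bp upstream, in the peak at chrX:4190604-4190967.

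The remaining 2 peaks lay between divergent genes. The peak at chrIII:9780610-9780973 had its summit 462 bp upstream of vha-1 (WBGene00006910, chrIII:9781254-9781763) and 438 bp upstream of sqv-3, which runs the other way and encodes a galactosyltransferase of glycosaminoglycan synthesis. The peak at chrIV:6790423-6790786 lay 469 bp upstream of vha-8 (WBGene00006917, chrIV:6791074-6792455) and 117 bp upstream of C17H12.2, also on the opposite strand. The noncoding RNA gene C17H12.33, which lies within C17H12.2 but on the strand of vha-8, starts 490 bp before the summit. So for vha-1 and vha-8 another protein-coding gene had the nearer start site, and the data do not assign a shared peak to either gene. Start sites of at least 2 protein-coding genes lay within 500 bp of 23.5% of the 865 peaks near protein-coding start sites.

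Relative to their own start sites the 5 summits had a median position of -308 bp. Relative to the nearest protein-coding start site, whichever gene it belonged to, the median was -185 bp, against -168 bp for all 865 such peaks, of which 87.2% lay upstream. Summits more than 400 bp from the nearest start site made up 8.55% of those peaks, and vha-1 and its neighbour sqv-3 shared one of them. Worm transcripts are often trans-spliced, and an annotated start may be the splice site, so that the distance to the point where transcription begins may be longer or shorter than given.

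**Figure D3:**
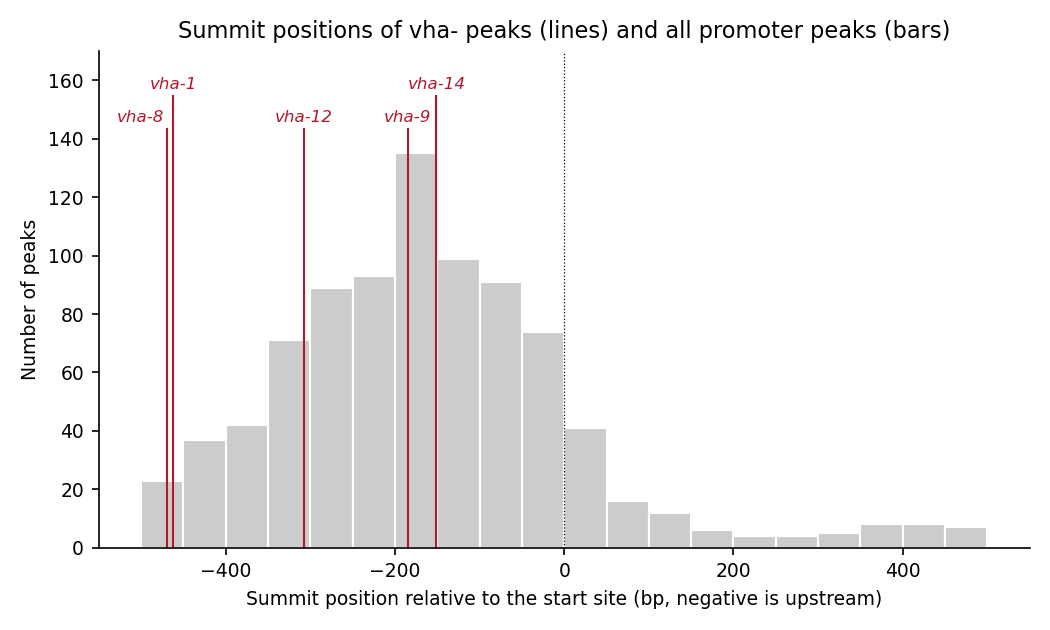
Number of peaks (y axis) by summit position relative to the nearest protein-coding start site (x axis, bp, in 50 bp bins) for the 865 peaks within 500 bp of one, with red lines at the positions of the 5 vha- peaks relative to their own gene. All 5 lines fall upstream, and those of vha-1 and vha-8 near the 500 bp limit.

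Around the peaks of the 5 genes the lists held further, lower regions. The proteolipid genes vha-1 and vha-2 follow each other on the same strand, 400 bp apart, and the region of vha-2 had its summit 195 bp inside that gene. A second region of vha-1 lay 207 bp upstream, between the peak and the start site, with a pooled signal of 33.3 at rank 6317, and both replicates listed it (ranks 5529 and 15861). In the body of vha-8 the region at 472 bp downstream ranked 2352 in replicate 1, while in replicate 2 the nearest region there had its summit at 503 bp and rank 4586. None of these regions was a peak. The proteolipid gene vha-3 and the subunit C gene vha-11, which also follow each other on one strand, with a gap of 892 bp, had pooled regions with signals of 31.6 and 30.3.

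**Figure D4:**
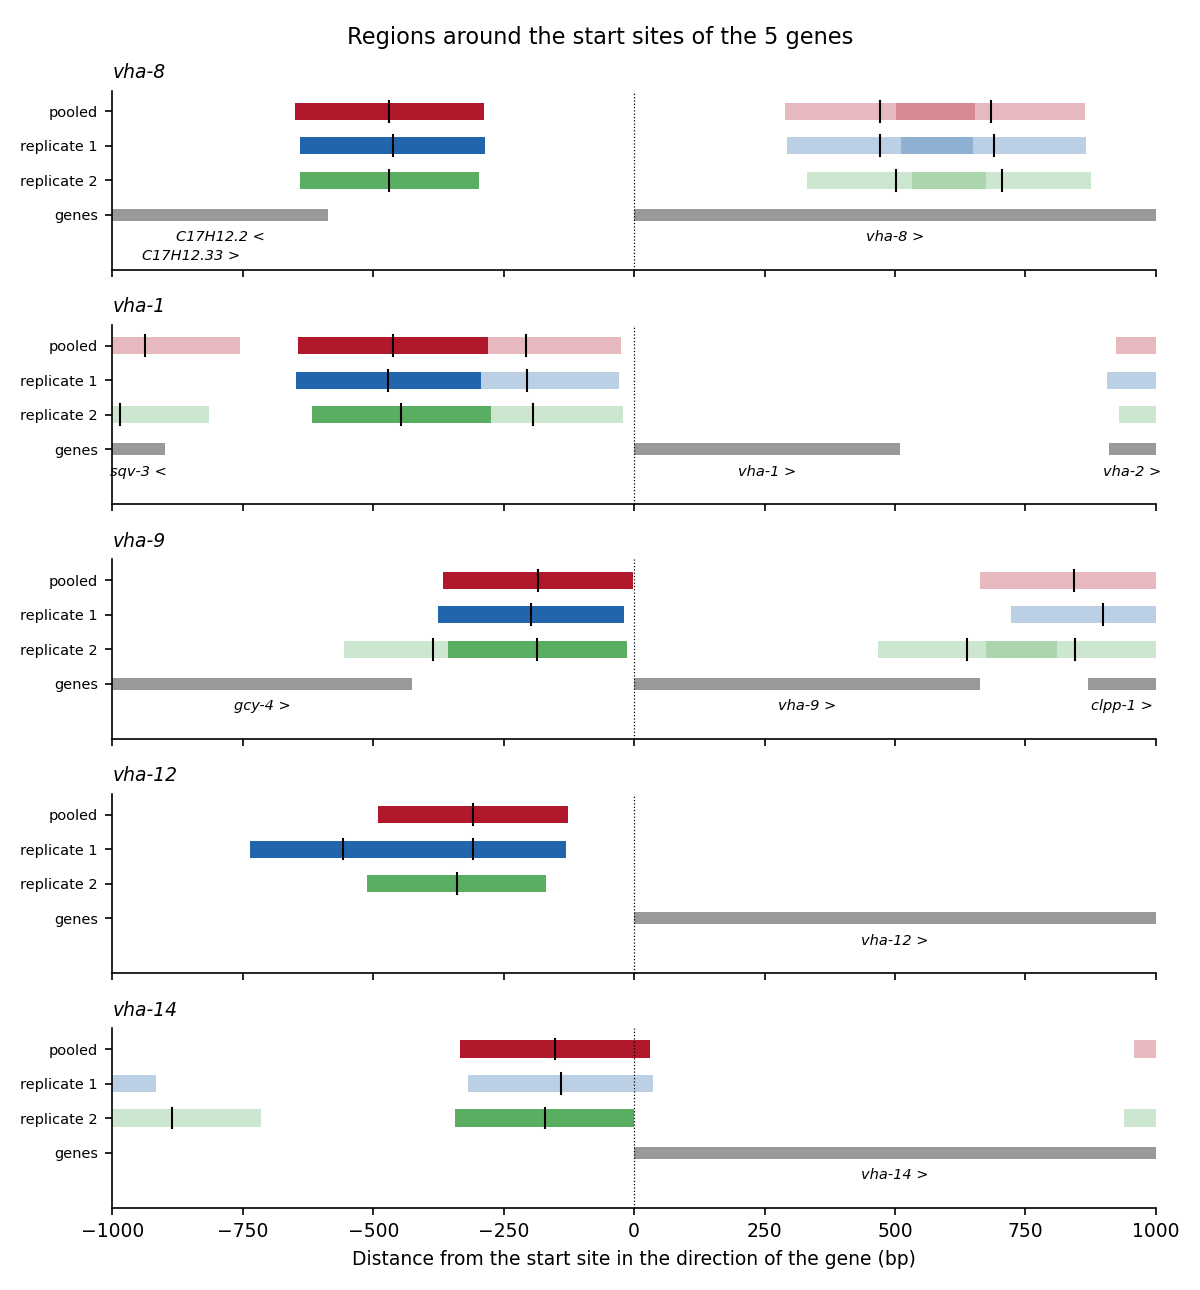
Regions within 1000 bp of the start sites of vha-8, vha-1, vha-9, vha-12 and vha-14, from the pooled list and each replicate (bars, with summits as black ticks), and annotated genes (grey, with direction). The x axis is the distance from the start site in the direction of the gene in bp; full colour marks regions ranked in the top 1794 of their list and pale colour all others. The summit of the main region stands within 31 bp between replicates except at vha-12, where replicate 1 has a pair of top regions.

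The summit sequences were searched for words that earlier results on these peaks had pointed to, namely GAGAGA, the word ACGCAG, its longer form GAGACGCAG and the word GAGCGC. They were also searched for the E-box CACGTG and the longer form TCACGTGA, the kind of site bound by the lysosomal regulator TFEB and its worm homologue HLH-30, and for TGATAA, a site of GATA factors. Both strands were read. GAGACGCAG contains ACGCAG, and TCACGTGA contains CACGTG. The first word, GAGAGA, lay within 50 bp of the summit at 3 of the 5 genes, vha-8, vha-9 and vha-14, against 26.9% of all peaks, 23.5% of peaks near protein-coding start sites and 5.87% of the 14862 background regions, which are the regions of lowest signal. ACGCAG lay at 2 genes, vha-1 and vha-12, against 17.2% of peaks near protein-coding start sites and 1.85% of background regions. GAGCGC lay at 1 gene, vha-12, against 15.1% and 1.17%. Background regions had a lower GC content, with a median of 31.7% against 45.5% over all peaks, and were not matched for it. With 5 genes these shares are a description.

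Each of the 5 windows held one of the first 2 words and none held both. The share of all peaks whose windows held either word, or both, was not computed. The words also came from earlier results on these same peaks, so no rule for vha- genes is read from this count. At vha-12 a copy of ACGCAG began at -2 bp from the summit, directly after the word GAGCGC, and another copy began at -29 bp. At vha-9 the GAGAGA word ran on the opposite strand, as TCTCTC, from 4 bp after the summit. At vha-14 it appeared as a pair of TCTCTC copies that began at -28 and -21 bp from the summit, and at vha-8 as 2 overlapping copies from 37 bp after it. At vha-1 ACGCAG began 11 bp after the summit. Within 182 bp of the summit, which is about the width of a peak, vha-12 also held GAGAGA.

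No window held GAGACGCAG (7.69% of all peaks), CACGTG (5.80%), TCACGTGA (0.669%) or TGATAA (6.19%), and none did within 182 bp either, where TGATAA lay in 25.8% of all peaks. These counts say only that the letters are not in the windows. Of the 2080 words of 6 bases, read on either strand, 11 lay in 3 of the 5 windows and none in 4 or 5. The 7-base word ACTTGCA lay in the windows of vha-1, vha-9 and vha-14, against 2.34% of all peaks and 1.08% of background regions, and ATAGAGCG lay in those of vha-8 and vha-14, against 1.62% and 0.141%. Both were picked after the sequences were seen, so they carry no test. The GC content of the 5 windows ran from 40.6% at vha-14 to 52.5% at vha-9 and vha-12, with a median of 44.6%, against medians of 45.5% over all peaks and 31.7% over background regions.

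Peaks of nearly equal height belonged to genes of other kinds. Directly above and below vha-8 among peaks near protein-coding start sites stood those of cdk-5 (147.7), a kinase best known in neurons, and unc-108 (147.4), a Rab2 GTPase. Next to vha-12 stood asb-2 (93.7), a subunit of the mitochondrial ATP synthase, and Y47H9C.8 (93.4), and next to vha-9 stood Y82E9BR.3 (94.7) and ZC443.3 (94.3). Next to vha-1 were C18B12.4 (96.5) and icl-1 (96.2), which encodes the glyoxylate cycle enzyme, and next to vha-14 were coh-1 (67.1), a cohesin subunit, and cts-1 (67.0), citrate synthase. Likeness here means closeness in pooled signal in 1 list and nothing else.

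Among 54 genes for lysosomal function, nutrient sensing at the lysosome and endosomal transport, 31 had a pooled region within 500 bp and 6 of these had a peak, against 15.2% of all protein-coding genes with a pooled region that near. The count is close to that share and is not read as a property of these genes. The highest were rheb-1 (signal 169, summit 287 bp upstream), a GTPase that activates the TOR kinase, and rbc-2 (150, 125 bp upstream), a rabconnectin homologue of the kind that regulates assembly of the pump. Both ranked high in each replicate, rheb-1 at 228 and 191 and rbc-2 at 390 and 172. The peak of ppk-3, a phosphoinositide kinase of the endolysosome, had a signal of 76.3 at rank 1099 and was in the top of both replicates, at ranks 1152 and 815. The other 3 lay nearer the threshold, rab-11.1 with 64.4 at rank 1577, hlh-30 with 62.7 at rank 1666 and rab-7, a GTPase of late endosomes, with 60.5 at rank 1770. The region of hlh-30 ranked 1186 in replicate 1 and 3972 in replicate 2, and that of rab-7 ranked 3832 and 1202. Of 25 genes for lysosomal enzymes and membrane proteins, 12 had a pooled region and 1 of these, ppk-3, had a peak. Of 14 genes for assembly of the pump and nutrient sensing, 9 had a pooled region and 3 of these a peak. Of 15 genes for endosome and vacuole trafficking, 10 had a pooled region and 2 of these a peak. With so few genes, nothing is read from these counts beside the 15.2% of all protein-coding genes with a pooled region.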

How the data were processed

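Regions came from the authors' deposited narrowPeak lists on ce11: 1 list per replicate, 1 from both pooled and 1 thresholded on the irreproducible discovery rate (IDR); control-normalized tracks named in the deposited listing were not used here. For the aligner, the peak caller, their versions, the IDR threshold and the scaling of the deposited signal, details are not stated in the sources used here. In narrowPeak files the ninth deposited column is the -log10 q-value. Every region ended within the chromosomes of the reference (WBcel235, the same assembly as ce11). The ce10 lists were not used.

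Start sites were those of all transcripts of nuclear genes in Ensembl release 115. Summits (start plus the deposited offset) within 500 bp of any of them counted as near the gene. Where several regions were, the one of highest signal stands for the gene. Peaks were matched to a replicate by an overlap of at least 1 bp, taking the highest region. Background regions were the 15000 of lowest pooled signal less those that overlapped a peak. Python 3.11.15 with pandas 2.3.3 and numpy 2.4.6 was used, and the distance and overlap functions were tested on simulated data.

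No test was run: there is 1 group of 2 replicates, and the members were chosen on the peaks. The members, gene lists and words were chosen with earlier results of these data known. The text names the vha- genes, those sharing a member's peak, the neighbours in rank and the list genes with a peak. Alternatives were other windows, higher thresholds, each replicate alone, outermost starts, reciprocal overlap and a wider flank. In the closing section the counts of pathway genes take in unc-32 and spe-5.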

Additional observations from a re-analysis of the deposited data

How the results depend on the processing

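The count of 5 vha- genes with a peak stayed within 1.5 times under every alternative except the 250 bp window. There 2 of the 9 vha- genes with a pooled region that near, vha-9 and vha-14, had a peak. The other summits lie 308 to 469 bp away. Over all protein-coding genes with a pooled region within 250 bp, 14.6% had a peak (646 of 4410). At 1000 bp, with the outermost start of each gene and with any base of the peak within 500 bp the same 5 genes had one. With the 897 peaks of highest signal, or only those matched in both replicates' top regions, it was 4, without vha-14. The pathway genes with a peak, unc-32 and spe-5 counted in, were 6 of the 33 with a pooled region. They were 10 of 39 at 1000 bp. With the 897 peaks of highest signal they were 2 of 33 (rbc-2 and rheb-1). With the peaks matched in both replicates they were 3 of 33 (rbc-2, rheb-1 and ppk-3). Over all protein-coding genes with a region that near, the share with a peak was 15.2% at 1000 bp, 8.26% and 10.2% under the same settings, against 15.2% at 500 bp. From replicate 2 alone they were 6, with unc-32 in place of hlh-30, and from replicate 1 alone 4.

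The median summit position of the 5 peaks, -308 bp in the pooled list, ran from -463 bp in replicate 1 to -340 bp in replicate 2. In replicate 1 it takes in the farther of the 2 regions at vha-12. The median rank, 671 in the pooled list, was 714 in replicate 2 and 775 in replicate 1. The value for replicate 1 again takes in the farther region at vha-12 (rank 584) and not the nearer region (rank 1184). The other values, among them the word counts within 100 bp of the summit, did not move past these limits. No paired analysis was possible because there is 1 group. With depth unknown and 2 replicates, small differences in signal between genes cannot be resolved.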
